A study of Drosophila melanogaster with 54 samples.

Results

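The Antennapedia complex is the cluster of anterior Hox genes on the right arm of chromosome 3 of Drosophila melanogaster. It was taken here as the stretch of arm 3R from 6655000 to 7005000 (dm6, counted from 1), which holds the 6 genes lab, pb, Dfd, Scr, ftz and Antp with the DNA between and around them. All regions of the 18 lists of bound regions that touch this window were used, so within it no region was picked by a binding value. The members, lists and rules were chosen with earlier results of these data known. At the threshold of q 0.01 these were 247 of 116680 regions, and at the stricter threshold of q 1e-10 they were 103 of 55094. Overlapping regions of the 18 lists at q 0.01 were merged into bound elements, of which 38 of 16210 lie in the window. They are numbered E1 to E38 in the order of their position.

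The lists come from ChIP-seq with an anti-GFP antibody. The cells were Kc167, an embryo-derived Drosophila line that resembles haemocytes, transfected transiently with plasmids for GFP fusion proteins. All groups shared the promoter of the plasmid, that of a metallothionein gene, which was switched on for 4 h with 1 mM CuSO4. After 10 min in 1% formaldehyde, cells within the same window of GFP brightness were collected by sorting. There were 8 groups with a single Hox protein, namely those with Lab, Pb, Dfd and Scr, that with Antp, and those with Ubx, Abd-A and Abd-B. There were 8 groups in which the same plasmid also expressed Homothorax (Hth). The other groups were Hth-GFP alone and Exd-GFP with Hth. Per the study, Kc167 cells express Exd themselves and Hth brings it into the nucleus, so the Hth group also had Exd. The study also describes a low background in the Exd+Hth ChIP, through which lower-scoring regions reached significance. Each group had 2 ChIP libraries and 1 input library (54 samples). The proteins were thus produced from a plasmid in a cell line and not from these genes in their own tissue, and the lists give no expression level by which the identity of the cells could be checked. Each list holds 1 set of regions that combines both replicates, without heights or read numbers. No value therefore has a replicate error, the sequencing depth behind each list is not shown by it, and the absence of a region means that none was called in both replicates at that threshold.

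Hox genes encode homeodomain transcription factors that give body segments their identity, and they lie along the chromosome in the order of the segments in which they act. Extradenticle (Exd) binds DNA beside a Hox protein and enters the nucleus together with Hth. Hox genes are themselves known targets of Hox proteins in the embryo, where lab and Dfd maintain their own transcription through enhancers within or beside the gene. The lists therefore allow a look at which Hox proteins, each expressed in the same cells, were bound at the genes that encode them.

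The sequences on which the account below turns fall into 2 sets. The first is made of composite Exd-Hox sites, searched as TGATTAAT, TGATTGAT or TGATTTAT on both strands of the whole element. Each is shown with its neighbouring bases, 30 in all, 5′ to 3′ on the plus strand of 3R with the match in capitals, so a match on the minus strand appears as its reverse complement. They are shown as examples of matches that lay within regions of more proteins with Hth than without. The E12 sites lie at chr3R:6787598-6787627 and chr3R:6788020-6788049, upstream of Dfd. The E18 sites lie at chr3R:6798765-6798794 and chr3R:6798992-6799021 in an intron of Dfd. The E24 and E26 sites lie at chr3R:6830190-6830219 and chr3R:6832901-6832930 in an intron of Scr. The E36 site lies at chr3R:6930535-6930564 in an intron of Antp.
E12 site a: agcgaaattaaATCAATCAgagataatctg
E12 site c: ttaatcactcaATCAATCAtttggcaaacg
E18 site a: tcggcttggcaATTAATCAtttatattcaa
E18 site b: acaaacgcatgATAAATCAtatgaaatttt
E24 site b: cagttccagaaATAAATCAgacgcagagcc
E26 site a: gcagatctgtaATCAATCAcgggcacgttg
E36 site a: tgagcgagaaaTGATTTATggccattgcca

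The second set is the stretch shared by most Hox lists in the 5 elements that all 8 Hox proteins bound in at least 1 condition, shown because these elements recur in the account of Dfd and Antp. Where the shared stretch was longer than 300 bases its central 300 bases are given. The E14 stretch (chr3R:6791536-6791732) lies just upstream of the annotated start of Dfd and was covered by 15 of the 16 Hox lists. The E17 stretch (chr3R:6796642-6796941) and the E18 stretch (chr3R:6799241-6799536) lie in an intron of Dfd, and the E38 stretch (chr3R:7000760-7001059) lies beyond the distal start of Antp. Each of the last 3 was covered by all 16 Hox lists. The E36 stretch (chr3R:6930440-6930715), in an intron of Antp, was covered by 12 lists. Capitals mark matches to the Exd-Hox words above, to the HoxA cores TTAATGA and TTAATTA, to the HoxB cores TTTATGA or TTTATGG or TTTATTA or TTTATTG, and to the Hth core TGACAG, on either strand. Neighbouring capitals may belong to overlapping matches of different motifs, as in E17 (HoxB and Hth) and E36 (Exd-Hox and HoxB). The E14 and E18 stretches hold none of these letters.
E14 stretch: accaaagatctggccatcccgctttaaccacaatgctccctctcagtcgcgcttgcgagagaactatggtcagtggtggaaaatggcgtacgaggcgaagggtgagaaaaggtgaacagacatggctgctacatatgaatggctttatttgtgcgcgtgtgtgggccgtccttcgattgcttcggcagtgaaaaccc
E17 stretch: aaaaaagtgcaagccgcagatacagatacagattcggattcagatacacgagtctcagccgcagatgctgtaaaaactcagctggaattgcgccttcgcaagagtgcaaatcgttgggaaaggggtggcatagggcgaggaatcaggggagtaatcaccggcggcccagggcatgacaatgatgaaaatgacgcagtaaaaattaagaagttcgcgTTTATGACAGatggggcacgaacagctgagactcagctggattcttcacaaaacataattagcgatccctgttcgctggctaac
E18 stretch: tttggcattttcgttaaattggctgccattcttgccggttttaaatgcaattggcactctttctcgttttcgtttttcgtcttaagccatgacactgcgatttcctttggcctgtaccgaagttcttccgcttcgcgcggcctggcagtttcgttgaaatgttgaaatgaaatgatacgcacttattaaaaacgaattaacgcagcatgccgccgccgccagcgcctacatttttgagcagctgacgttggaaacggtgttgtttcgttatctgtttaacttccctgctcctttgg
E36 stretch: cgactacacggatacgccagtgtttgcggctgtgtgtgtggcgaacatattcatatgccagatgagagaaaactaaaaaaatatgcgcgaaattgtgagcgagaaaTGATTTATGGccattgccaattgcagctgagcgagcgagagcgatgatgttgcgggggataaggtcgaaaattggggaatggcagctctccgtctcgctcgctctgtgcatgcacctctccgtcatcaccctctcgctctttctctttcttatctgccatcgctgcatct
E38 stretch: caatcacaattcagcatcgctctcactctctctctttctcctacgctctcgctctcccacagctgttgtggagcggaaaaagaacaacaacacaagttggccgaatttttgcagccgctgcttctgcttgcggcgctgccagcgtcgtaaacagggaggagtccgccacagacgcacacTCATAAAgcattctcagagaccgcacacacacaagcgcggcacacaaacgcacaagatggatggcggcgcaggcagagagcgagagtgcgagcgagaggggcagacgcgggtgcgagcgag

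Bound elements were spread unevenly over the window. Of the 38 elements, 31 had a region of at least 1 Hox protein and 7 had none, which is to be read against 14.2% of all elements that were in no Hox list. The elements were 322 to 2877 bp wide with a median of 579.5 bp, against 667.5 bp over all elements, and together they took up 7.62% of the window against 12.0% of the 6 arms. Among 380 tiles of 350 kb over the arms the median was 45 elements, and 137 tiles held fewer than 38. By the position of its centre, Antp held 7 elements, Scr 5, Dfd 4, lab 2, pb 1 and ftz 0, and 19 lay between these genes. The densest stretch surrounded Dfd, with 10 elements (E10 to E19) from 6784968 to 6802795. Its opposite was a stretch of 42553 bp between E29 and E30 that holds all of ftz, and the widest stretch without an element, 54971 bp, lay in the distal part of Antp.

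**Figure D1:**
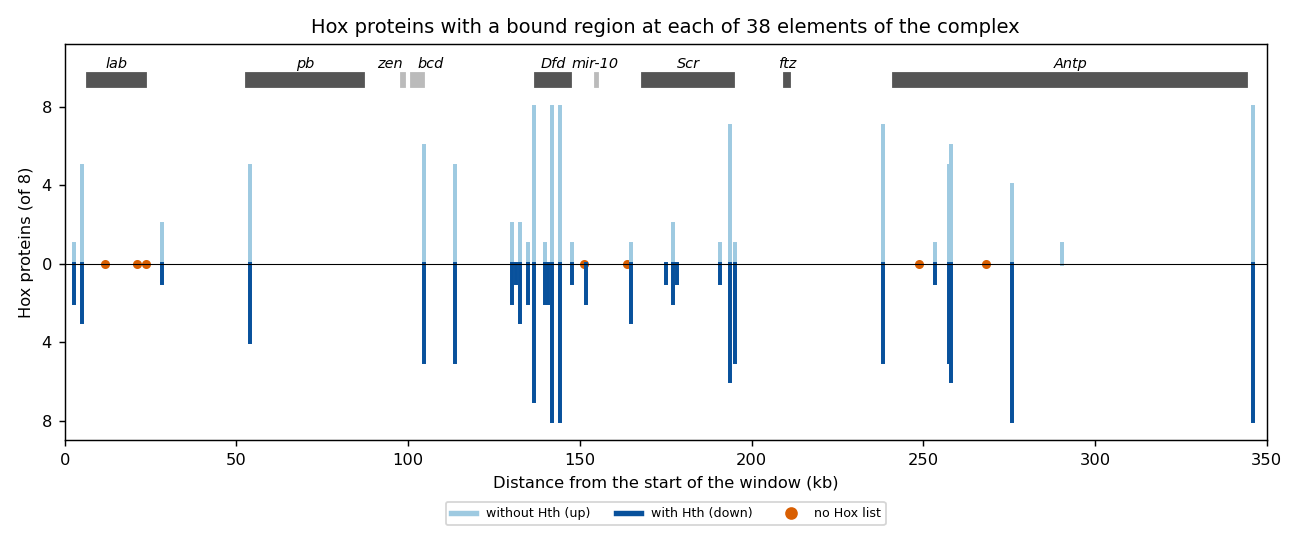
Number of Hox proteins (of 8) with a bound region at q 0.01 at each of the 38 elements, against the distance of the element from the start of the window in kb. Bars up are lists without Hth, bars down lists with Hth, orange points are the 7 elements in no Hox list, and boxes at the top are gene bodies. The 5 elements with all 8 proteins in either condition lie around Dfd (E14, E17, E18) and at Antp (E36, E38), and none lies near ftz.

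Dfd, which specifies the mandibular and maxillary segments of the head, was the only member gene with a region of all 8 Hox proteins in its body both without and with Hth. Among protein-coding genes of 10 kb or more, 28.7% had all 8 without Hth and 29.6% with Hth. The genes Ubx and Abd-B, outside the complex, also had all 8 in both conditions. Dfd lies at 6791836 to 6802428 on the plus strand. Of the 5 elements bound by all 8 proteins in either condition, 3 were here. E14 (6791414 to 6791950) spans the annotated start and the 5′ UTR, and E17 (6796301 to 6797677) and E18 (6797845 to 6800721) lie in an intron. E14 was in all 8 lists without Hth, in 7 with Hth (not Lab), and in those of Hth and Exd+Hth, while only Abd-B without Hth and Dfd and Abd-B with Hth had it at q 1e-10. E17 and E18 were in all 18 lists. At q 1e-10, E17 was kept by 6 Hox proteins without Hth and 7 with Hth, and E18 by 6 without Hth and all 8 with Hth.

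The bases of the Dfd body covered without Hth were 608 for Lab, 1577 for Pb, 1974 for Dfd, 2624 for Scr, 1763 for Antp, 1611 for Ubx, 2593 for Abd-A and 2877 for Abd-B. With Hth they were 2396 for Lab, 2631 for Pb, 2595 for Dfd, 3266 for Scr, 2166 for Antp, 2286 for Ubx, 2650 for Abd-A and 2846 for Abd-B. The value with Hth was the higher one for 7 of 8 proteins, Abd-B being the exception, and the 2 sets of values overlapped. Within the gene, E18 was the element where all 8 proteins covered more bases with Hth.

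In E18 the bases covered without Hth were 296 for Lab, 527 for Pb, 1262 for Dfd, 1786 for Scr, 1083 for Antp, 1201 for Ubx, 1570 for Abd-A and 1689 for Abd-B. With Hth they were 1270 for Lab, 1499 for Pb, 1759 for Dfd, 1852 for Scr, 1646 for Antp, 1514 for Ubx, 1660 for Abd-A and 1736 for Abd-B. For Dfd, Antp, Ubx and Abd-A the element was in 2 separate regions without Hth and in a single one with Hth. At the same element Hth alone covered 2013 bp and Exd+Hth 2804 bp. The Exd-Hox site a of E18 printed above lay within the regions of 4 proteins without Hth (Scr, Ubx, Abd-A and Abd-B) and of all 8 with Hth, and site b within those of 6 and of 8. Both sites were also within regions of Hth and of Exd+Hth. A further match in E18, 8659 bp downstream of the start, was covered by Exd+Hth and by no Hox list. The neighbouring E17, which holds no Exd-Hox match, had a median of 710 bp without Hth and 771 bp with Hth over the 8 proteins, with more bases with Hth for 4 proteins and fewer for the other 4. These are a single pair of elements, and a link between matches and covered bases was not tested.

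The DNA upstream of Dfd carried a different set of proteins. E10, E11, E12 and E13, which lie between 6784968 and 6790411, had regions of Lab, Pb and Dfd and of no other Hox protein, and none of the 4 was in the Hth or Exd+Hth list. E10 was bound by Pb and Dfd in both conditions, E11 by Dfd with Hth, E12 by Lab and Pb without Hth and by Lab, Pb and Dfd with Hth, and E13 by Pb without Hth and by Pb and Dfd with Hth. E12 (6786909 to 6788211) was kept by all 3 proteins at q 1e-10 with Hth, against Pb alone without. Its 3 Exd-Hox matches lay within regions of Lab at 1 match and of no protein at the others without Hth, and within regions of 2 or 3 proteins with Hth. In E12 all 3 proteins covered more bases with Hth. The other elements of the Dfd stretch were bound by 1 or 2 proteins in each list set, namely E15 in the intron (Pb, and Lab and Pb with Hth), E16 (Lab and Scr with Hth only) and E19 downstream of the gene (Scr in both conditions). Between Dfd and Scr, E20 and E22 were in the Exd+Hth list only, E21 in the Dfd and Abd-B lists with Hth, and E23, over a lysine tRNA gene, in the Abd-B list without Hth and in those of Lab, Ubx and Abd-A with Hth. E23 and E29 below were, with E36, the elements that 3 or more proteins had with Hth and not without. None of E19 to E23 was in a Hox list at q 1e-10.

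Scr, which specifies the labial segment and the prothorax and is needed for the salivary glands, lies at 6823120 to 6849981 on the minus strand. Its body had regions of the same 7 proteins in both conditions, Lab being the exception. E28 (6848346 to 6849121), over a 5′ UTR and intron close to the starts, accounted for most of this, with all proteins but Lab without Hth and all but Lab and Antp with Hth, together with Hth and Exd+Hth. The bases of the Scr body covered without Hth were 0 for Lab, 934 for Pb, 784 for Dfd, 499 for Scr, 276 for Antp, 443 for Ubx, 528 for Abd-A and 1301 for Abd-B. With Hth they were 0 for Lab, 892 for Pb, 2840 for Dfd, 627 for Scr, 153 for Antp, 636 for Ubx, 772 for Abd-A and 1311 for Abd-B. The value with Hth was higher for 5 proteins and lower for 2, and Dfd stood apart from the other 7.

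The higher value of Dfd came from 3 neighbouring elements in the Scr intron. E24 (6829722 to 6830640) and E26 (6832890 to 6833470) were in the Dfd+Hth list and in no other of the 18 lists, and E25 (6831824 to 6832632) between them was bound by Pb and Dfd in both conditions. All 3 were in the Dfd+Hth list at q 1e-10. E24 and E26 hold 3 and 2 Exd-Hox matches, each within the region of Dfd with Hth, of which a site of each is printed above. With E11 they were the 3 longest elements bound by a single Hox protein, at 919 bp, 736 bp and 581 bp for E24, E11 and E26, and all 3 were bound by Dfd with Hth alone. Dfd with Hth was also the largest of the Hox lists, with 12050 regions over the arms and 68.4% of all elements. Over the complex 7 elements were bound by a single Hox protein (26.4% of all elements), the others being E19 by Scr, E27 and E37 by Abd-B, and E32 by Lab.

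E29 (6849704 to 6850399), which spans the distal start of Scr, added 4 proteins with Hth, as many as E36 and more than any other element. It was bound without Hth by Abd-B alone, over 336 bp. With Hth it was bound by Scr over 470 bp, Antp over 571 bp, Ubx over 628 bp, Abd-A over 591 bp and Abd-B over 445 bp, and by none of Lab, Pb and Dfd. Antp, Ubx, Abd-A and Abd-B also had it at q 1e-10 with Hth, and no protein did without. Exd+Hth had a region of 476 bp there and Hth alone had none.

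Antp, which specifies the second thoracic segment, spans 6896253 to 6999228 on the minus strand. The gene model CG46458 overlaps its introns, so an element there cannot be given to 1 of them. Without Hth the gene body had regions of 7 proteins, with Antp itself missing, and with Hth of all 8. The bases covered without Hth were 302 for Lab, 850 for Pb, 1529 for Dfd, 845 for Scr, 0 for Antp, 554 for Ubx, 1275 for Abd-A and 2158 for Abd-B. With Hth they were 580 for Lab, 1150 for Pb, 2095 for Dfd, 1258 for Scr, 532 for Antp, 1187 for Ubx, 1170 for Abd-A and 1805 for Abd-B. The value with Hth was higher for 6 proteins and lower for Abd-A and Abd-B.

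**Figure D2:**
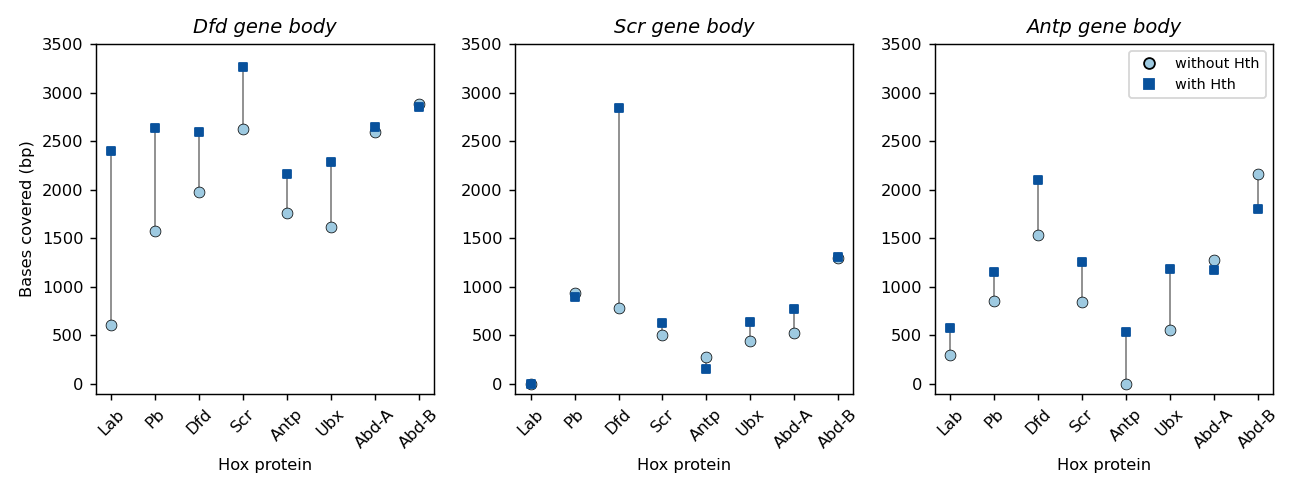
Bases (bp) of the Dfd, Scr and Antp gene bodies covered by regions of each Hox protein at q 0.01, as circles without Hth and squares with Hth joined by a line. At Dfd 7 of 8 proteins are higher with Hth, at Scr the line of Dfd rises from 784 to 2840 bp, and at Antp the protein Antp goes from 0 to 532 bp.

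E36 (6930116 to 6931277), 2144 bp downstream of an annotated start of Antp, also added 4 proteins with Hth. Without Hth it was bound by 4 proteins, over 525 bp for Pb, 782 bp for Dfd, 512 bp for Abd-A and 602 bp for Abd-B. With Hth it was bound by all 8, over 276 bp for Lab, 845 bp for Pb, 1162 bp for Dfd, 437 bp for Scr, 532 bp for Antp, 436 bp for Ubx, 448 bp for Abd-A and 733 bp for Abd-B. At q 1e-10 it was kept by Abd-B without Hth and by Dfd, Antp, Ubx, Abd-A and Abd-B with Hth. It was in the Exd+Hth list over 453 bp and not in the Hth list. Its Exd-Hox site a, printed above, lay within the regions of the 4 proteins without Hth and of all 8 with Hth, and a further match within those of Dfd without Hth and of Pb and Dfd with Hth. E36 and E29 share a called region in the Exd+Hth list and none in the Hth list, and the addition of 4 proteins with Hth (Scr, Antp and Ubx at both). A region of Exd+Hth without one of Hth was also found at E16 and E21, which added 2 proteins each. It was found too at E8, E9 and E34, which added 1, 0 and 0. E23, which added 3, was in neither list, and a link was not tested.

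Elsewhere in Antp the lists differed less between the conditions. E33 was bound by Dfd, Scr, Ubx, Abd-A and Abd-B in both conditions, with Ubx and Abd-B at q 1e-10 without Hth and all 5 with Hth. E34, 86 bp from it, was bound by Pb and the same 5 proteins in both conditions. E31 was in the Hth and Exd+Hth lists only and E35 in the Exd+Hth list only, while E37 was bound by Abd-B without Hth. Outside the body, E38 (7000477 to 7001425) lies 1723 bp upstream of the distal start over the long non-coding RNA CR45899. It was in all 18 lists, at 615 to 833 bp without Hth (median 792.5 bp) and 502 to 937 bp with Hth (median 820 bp), with 5 proteins higher and 3 lower, and at q 1e-10 it was kept by 7 proteins in each condition. E30, beyond the other end of Antp over the non-coding RNA CR45559, was bound by 7 proteins without Hth and 5 with Hth, with Hth and Exd+Hth.

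The remaining member genes had little or no Hox binding. lab, the most anterior of the Hox genes in its expression, lies at 6661427 to 6678590 on the minus strand and had no region of any Hox protein in its body in either condition. E3 and E4 in its intron and E5 over its distal start were in the Exd+Hth list only, which covered 1024 bp of the gene. The nearest Hox-bound elements were E2, over the neighbouring gene agt and bound by 5 proteins without Hth and 3 with Hth, and E6 upstream, bound by Pb and Dfd without Hth and by Dfd with Hth. E1, further out, was bound by Abd-B without Hth and by Dfd and Abd-B with Hth. pb, which acts in the adult mouthparts, lies at 6707800 to 6742063 on the minus strand and held only E7 (6708846 to 6709232), in an intron. Without Hth E7 was bound by Dfd over 315 bp, Scr over 341 bp, Antp over 322 bp, Ubx over 292 bp and Abd-B over 319 bp. With Hth it was bound by Dfd over 380 bp, Ubx over 319 bp, Abd-A over 254 bp and Abd-B over 343 bp, and only Ubx with Hth kept it at q 1e-10. The annotated start of pb had no element within 5 kb. ftz, a pair-rule segmentation gene without homeotic function, lies at 6864324 to 6866244, and no Hox protein, nor Hth or Exd+Hth, had a region in it or within 5 kb of it. Its coding exons were not on the plasmids.

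Of the other genes of the complex, zen, which acts in the dorsal embryo, and its neighbour zen2 had no Hox region within 5 kb. bcd, which encodes the anterior morphogen of the egg, had none in its body, and E8, 223 bp upstream of its start, was bound by 6 proteins without Hth and 5 with Hth. E9, in an intron of the non-coding RNA CR42721 beyond Ama, was bound by Pb, Dfd, Ubx, Abd-A and Abd-B in both conditions. mir-10, the microRNA gene between Dfd and Scr, had E20 and E21 within 5 kb, of which only E21 was bound by Hox proteins.

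The 5 complex genes whose proteins were profiled gave different pictures of binding at the protein's own gene. Dfd was bound at Dfd over 1974 bp without and 2595 bp with Hth, and Scr at Scr over 499 bp without and 627 bp with Hth. Antp was bound within Antp only with Hth, although it was bound upstream at E38 in both conditions. Lab had no region in lab and Pb none in pb in either condition. The coding exons of these genes could not be examined, since the authors took out regions that lay over plasmid-borne exons, and no region of any list overlapped a coding exon of the 10 plasmid-borne genes. Beside such an exon, at E32 in Antp, the 2 thresholds disagreed. Of all 55094 regions at q 1e-10, 2 had no region of the same group at q 0.01. Both were here, the Scr region from 6908170 to 6908466 and the Abd-B+Hth region from 6908175 to 6908434, which end 42 bp and 74 bp from a removed Antp exon. At q 0.01 E32 was bound by Lab alone, and it is therefore reported as uncertain.

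**Figure D3:**
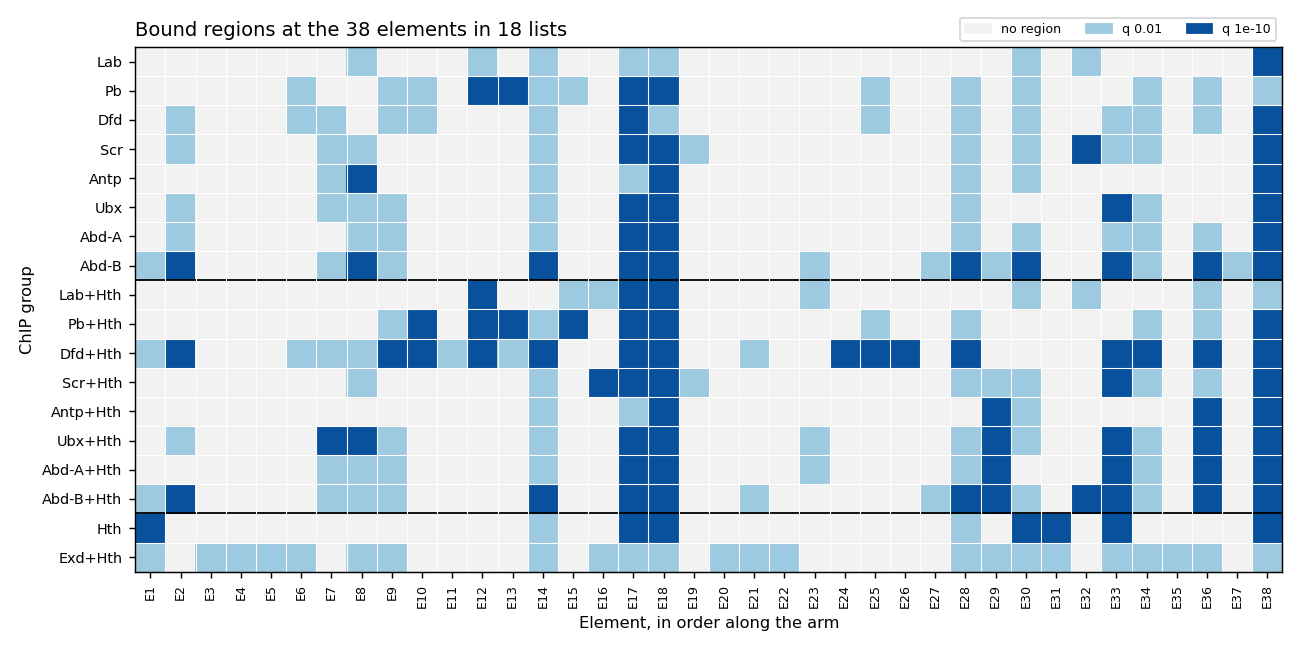
Presence of a bound region at each of the 38 elements (columns, in order along the arm) in each of the 18 lists (rows), with pale blue for q 0.01 and dark blue for q 1e-10. E17, E18 and E38 are filled in all 18 rows, E10 to E13 only in the Lab, Pb and Dfd rows, and at E32 the Scr and Abd-B+Hth regions are in the q 1e-10 lists only. The Exd+Hth list was used at q 0.01 only.

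The share of elements bound by each protein was near that over the 6 arms for most lists. Without Hth, Lab bound 8 of the 38 elements (18.7% of all elements), Pb 15 (28.5%), Dfd 15 (41%), Scr 12 (35.9%), Antp 8 (17%), Ubx 11 (17.9%), Abd-A 12 (26.1%) and Abd-B 18 (49.8%). With Hth, Lab bound 10 (23.5%), Pb 13 (28.1%), Dfd 22 (68.4%), Scr 13 (34.1%), Antp 7 (14.6%), Ubx 15 (25.8%), Abd-A 13 (29.9%) and Abd-B 17 (45.8%). Hth alone bound 9 (25%) and Exd+Hth 23 (58.9%). The widest differences from all elements were those of Ubx with Hth, at 39.5% of the complex against 25.8%, of Ubx without Hth, at 28.9% against 17.9%, of Pb without Hth, at 39.5% against 28.5%, and of Dfd with Hth, at 57.9% against 68.4%. Elements of a single locus are not replicates, and these differences were not tested.

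**Figure D4:**
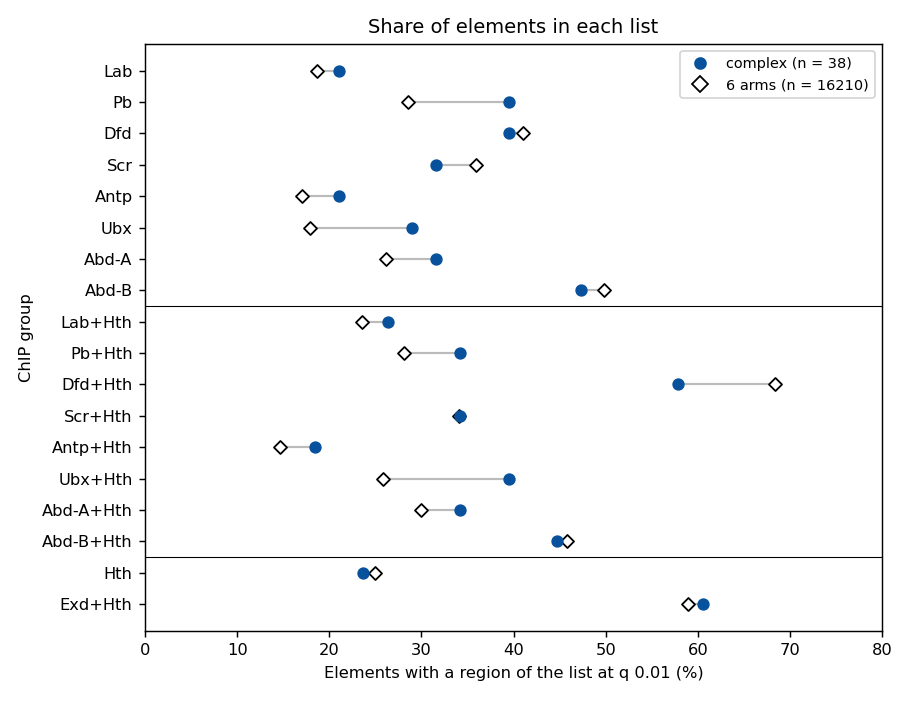
Percentage of elements with a region of each list at q 0.01, as filled circles for the 38 elements of the complex and open diamonds for the 16210 elements of the 6 arms. Ubx with Hth (39.5% against 25.8%) lies furthest above the arms and Dfd with Hth (57.9% against 68.4%) furthest below.

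Fewer elements were kept at q 1e-10. Without Hth, Lab kept 1 element (8.43% of all elements), Pb 4 (13.5%), Dfd 2 (22.2%), Scr 4 (18.8%), Antp 3 (4.3%), Ubx 4 (5.26%), Abd-A 3 (10.6%) and Abd-B 10 (26.5%). With Hth, Lab kept 3 (11.4%), Pb 7 (14.1%), Dfd 15 (45.4%), Scr 5 (18.2%), Antp 4 (5.45%), Ubx 8 (10.4%), Abd-A 6 (13.5%) and Abd-B 10 (23.4%), and Hth alone kept 7 (13.1%). Dfd thus went from 2 elements to 15, with deeper libraries listed for it with Hth. The counts of Scr without Hth and of Abd-B with Hth include the uncertain E32.

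All 8 Hox proteins were bound at 4 elements without Hth (7.76% of all elements) and at 4 with Hth (7.79%), and E17, E18 and E38 were among both. Elements in Hox lists only with Hth numbered 5 (20.2% of all elements), namely E11, E16, E21, E24 and E26, and only E37 was bound by a Hox protein only without Hth. For whole gene bodies, 1 of the 6 genes had all 8 proteins without Hth (7.52% of 13945 protein-coding genes) and 2 had them with Hth (6.73%). Long genes offer more room for regions, and among the 5 members of 10 kb or more the counts were again 1 (28.7% of protein-coding genes of that length) and 2 (29.6%). Exd+Hth was present at 16 of the 31 elements bound by a Hox protein (52.2% of all Hox-bound elements), a share near that of the arms.

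The addition of Hth was compared over the 8 proteins, each paired with itself, by exact sign-flip permutation tests (two-sided, smallest possible p 0.0078125), with Benjamini-Hochberg adjustment over the 3 tests. The number of regions in the window without and with Hth was 8 and 10 for Lab, 15 and 13 for Pb, 16 and 22 for Dfd, 12 and 13 for Scr, 9 and 7 for Antp, 12 and 15 for Ubx, 13 and 13 for Abd-A, and 18 and 17 for Abd-B. The means were 12.9 ± 3.40 and 13.75 ± 4.50 (SD, n = 8 proteins), and the paired difference of 0.875 ± 2.75 did not pass the test (4 proteins higher, 3 lower, exact p = 0.5, adjusted p = 0.5). The bases covered without and with Hth were 3131 and 5229 for Lab, 7773 and 8481 for Pb, 7680 and 14935 for Dfd, 6885 and 7532 for Scr, 4110 and 4812 for Antp, 4688 and 7510 for Ubx, 6802 and 7311 for Abd-A, and 10295 and 10010 for Abd-B. They rose by a mean of 1807 ± 2409 bp (SD, n = 8), with 7 proteins higher and Abd-B lower (exact p = 0.015625, adjusted p = 0.046875). Dfd alone added 7255 bp, and without it the mean difference was 1029 bp (n = 7, exact p = 0.03125). Dfd was also the only Hox protein for which the study lists more mapped reads in both libraries with Hth than in either without. For each of the other 7 it lists a library with Hth with fewer mapped reads than either without. Those of Pb and Abd-B had the fewest, and a region had to be called in both replicates. The part of depth in these values was not tested. The study lists Ubx, Abd-A and Abd-B on another sequencing platform than the other groups. Among the 5 proteins of the common platform the difference was 2282 bp (exact p = 0.0625, the smallest that 5 proteins allow), and among the other 3 it was 1015 bp (exact p = 0.5, the smallest possible being 0.25).

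**Figure D5:**
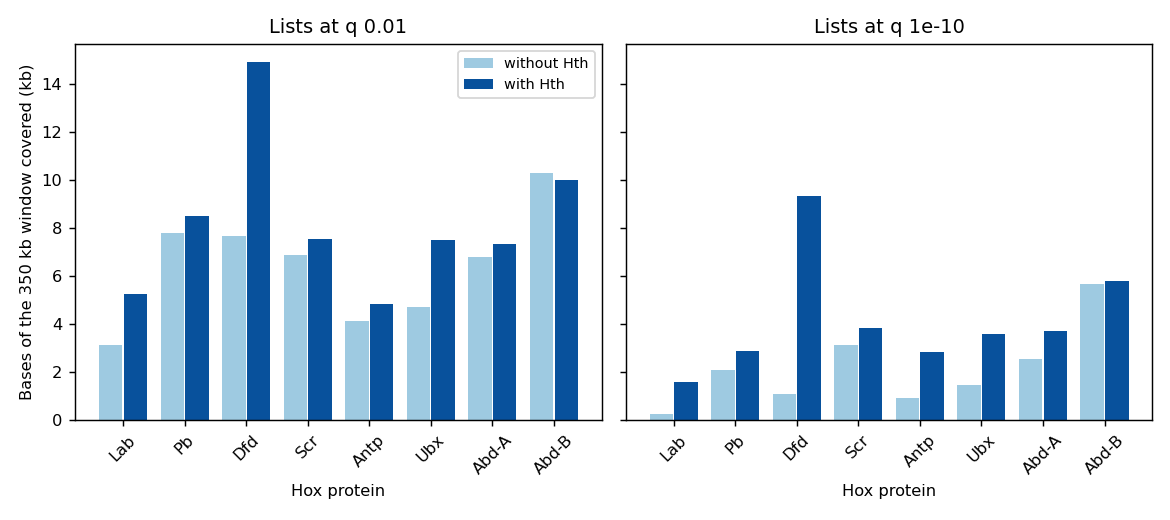
Bases of the 350 kb window (kb) covered by regions of each Hox protein without Hth (pale bars) and with Hth (dark bars), in the lists at q 0.01 on the left and at q 1e-10 on the right. At q 0.01 every protein but Abd-B has the taller bar with Hth, and Dfd has the widest difference, from 7680 to 14935 bp. At q 1e-10 all 8 bars are taller with Hth, that of Abd-B only through its uncertain region at E32.

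The comparison with the rest of the genome depended on the threshold. At q 0.01 the log2 ratio of covered bases with to without Hth in the window exceeded that over the rest of the arms by 0.05 ± 0.11 (SD, n = 8, with 5 proteins higher, 3 lower), which did not pass the test (exact p = 0.273, adjusted p = 0.410). At q 1e-10 the same difference was 0.72 ± 0.87 and was above 0 for all 8 proteins (exact p = 0.0078125, adjusted p = 0.0117). It was widest for Lab at 2.27 and Dfd at 1.84, which started from 217 bp and 1059 bp, and only 0.02 for Scr and 0.03 for Ubx. The number of regions at q 1e-10 also rose, by 3.375 ± 4.34 (6 proteins higher, 1 lower, exact p = 0.046875, adjusted p = 0.046875), a call that was lost without any of Lab, Pb, Dfd, Antp, Ubx or Abd-A. Without Dfd, which went from 2 to 15 regions, the mean was 2.0 (n = 7, exact p = 0.09375). The covered bases at q 1e-10 rose by 2071 ± 2596 bp, for all 8 proteins (exact p = 0.0078125, adjusted p = 0.0117), and by 1182 bp without Dfd (n = 7, exact p = 0.015625). For Abd-B the rise was from 5659 to 5800 bp. It rests on the Abd-B+Hth region at E32, 260 bp wide, which was reported above as uncertain. Without that region Abd-B would be lower with Hth, and the test was not repeated without it. Regions at E32 also enter the region numbers and log2 ratios of Scr and Abd-B. The starting values of Lab and Dfd amount to 1 region for Lab and 2 for Dfd, so the log2 ratios rest on few regions. Proteins cannot stand in for replicates, and each p-value speaks only of how evenly a change ran through the 8 of them.

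Regions of a protein with Hth that overlapped none of the same protein without Hth were called gained. In the complex the gained regions were 4 of 10 for Lab (37.9% over the genome), 0 of 13 for Pb (16.8%), 8 of 22 for Dfd (40.6%), 3 of 13 for Scr (14%), 2 of 7 for Antp (36.5%), 4 of 15 for Ubx (39.7%), 3 of 13 for Abd-A (22.9%) and 1 of 17 for Abd-B (8.44%). In sum 25 regions were gained, 85 were common to both conditions, and 14 of 103 regions without Hth had no counterpart with Hth (14.1% over the genome). Pb with none gained was the furthest below its share over the genome at this threshold. Its lists with Hth include a library with fewer mapped reads, per the study, than either without Hth. At q 1e-10 the gained regions were 4 of 4 for Lab (43% over the genome), 3 of 7 for Pb (20.2%), 13 of 15 for Dfd (53.6%), 2 of 5 for Scr (16.7%), 2 of 4 for Antp (57%), 5 of 9 for Ubx (55.3%), 3 of 7 for Abd-A (32.8%) and 2 of 10 for Abd-B (9.82%), 34 in all. Pb thus lay below its genome share at q 0.01 and above it at q 1e-10. The gained regions of Abd-B at q 1e-10 include the uncertain one at E32. The shares were not tested.

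The sequence content of the elements was compared with that of all elements, as a description. An Exd-Hox word was found in 12 of the 38 elements (26.3% of all elements), a HoxA core in 19 (49.4%), a HoxB core in 26 (67.0%) and an Hth core in 14 (32.8%). In the central 200 bp, a window of the same length in every element, the Exd-Hox words were in 7.89% (8.75%), the HoxA cores in 21.1% (19.8%), the HoxB cores in 31.6% (28.1%) and the Hth core in 21.1% (11.6%). Per length, the elements of the complex held 0.825 Exd-Hox matches per kb, 22 in all, against 0.375 over all elements and 0.377 in the DNA of the complex outside its elements. The 22 matches were clustered, with 3 each in E12, E18 and E24 and 2 each in E23, E26, E33 and E36, and the pair in E23 overlap on opposite strands. At E12, E18 and E36, 7 matches were covered by the region of at least 1 more protein with Hth than without, and at E11, E24 and E26 a further 6 were covered by Dfd with Hth alone. E7, E8, E15, E16, E21 and E30 hold no Exd-Hox match and were also bound with Hth by proteins that did not bind them without. The 5 matches in E13, E23 and E33 were each covered by a region of 1 protein without Hth and of none with Hth. A match is only a description of the letters and does not show that a protein was bound at it.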

How the data were processed

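Per the labels and the study's methods, the authors used Bowtie 1.2.2 to place uniquely matching reads on dm6. Each replicate was then compared with its input by MACS2 2.1.1.20160309, at 2 thresholds (q 0.01 and q 1e-10). Regions over plasmid-borne exons were dropped, and regions that overlapped between the replicates were joined. The deposited score column is 0 throughout, and the other deposited columns give arm, start, end and group, so no depth or height entered. The Exd+Hth list at q 1e-10 was not used here. Abd-A and Abd-B may share an input, as may both with Hth, since the study gives equal read numbers.

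Groups came from the sample labels. Overlap was at least 1 bp. Genes were those of Ensembl release 115 on the 6 arms, and the coordinates of the 6 members were the same in RefSeq. Sequences are from the reference genome of the same release. A sequence within the window is not reported here. Named elements were those bound by all 8 proteins, by 3 or more at q 1e-10 or only with Hth, nearest to a member start, the 3 longest bound by a single protein, and those with an Exd-Hox site gained with Hth, the others being given for completeness. Members, lists and rules were chosen with earlier results of these data known. A p below 0.05 was called. Alternatives were the stricter lists, leaving out each protein or the other platform, other windows, centres, merging within 200 bp, 50% overlap, flanks of 1 or 5 kb and central 200 bp. The functions were tested on simulated data. Scripts ran under Python 3.11.15 with numpy 2.4.6, matplotlib 3.10.9 and scipy 1.17.1.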

Additional observations from a re-analysis of the deposited data

How the results depend on the processing

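At q 1e-10 the difference in region number (3.375, exact p = 0.046875) and that against the rest of the genome (0.72 on the log2 scale, exact p = 0.0078125) passed the test, and the merged elements numbered 25, those bound by all 8 proteins without Hth 0, common regions 27, gained regions 34 and lost regions 5. The uncertain regions at E32 are among these gained and lost regions. The covered bases lost the call among the 5 proteins of the common platform (2282 bp, exact p = 0.0625) and the other 3 (1015 bp, exact p = 0.5), an alternative chosen after seeing the data in which the difference against the rest turned to -0.042 (exact p = 0.5). With fewer proteins the smallest possible p is higher. Leaving out each protein in turn gave 0.143 to 1.29 regions, 1029 to 2106 bp and 0.02 to 0.07 on the log2 scale, all on the same side of the threshold. At q 1e-10, where this was added after seeing the data, it gave 2.0 to 4.0 regions (exact p = 0.03125 to 0.09375), 1182 to 2347 bp and 0.50 to 0.82 on the log2 scale, and only the region number lost its call. In the central 200 bp, 3 elements held an Exd-Hox site. Of the counts of proteins at each gene, 6 moved by over 1.5 times, namely lab within 5 kb (6 without and 3 with Hth) and, at q 1e-10, pb (0 and 1), Scr without Hth (1) and Antp without Hth (3), and 30 stayed within that range, some of them changed by 1 or 2 proteins. In that last count at Antp the protein Scr enters only through its uncertain region at E32. No paired analysis was possible because each list combines both replicates, so replicate numbers carry no values, and the pairing used was by protein alone. The lists themselves show no depth, and the weaker library limits each.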
